A study of Homo sapiens with 6 samples.

Results

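The 10 genes described here encode the NF-κB transcription factor subunits and the inhibitors that feed back on them, measured by RNA-seq in HCCLM3, a human hepatocellular carcinoma (HCC) cell line. They were taken as the rows of the deposited count table whose symbol is *NFKB1*, *NFKB2*, *RELA*, *RELB*, *NFKBIA*, *NFKBIE*, *NFKBIZ*, *BCL3*, *TNFAIP3* or *TNIP1*, so they are 10 of the 20381 genes in the table. Each symbol matched 1 row. The set was selected on known results of these libraries, chosen by a reading of the PON1-OE against NC differences, so the members' differences between the groups are given as a description and carry no test of their own. There were 3 PON1-OE libraries, from HCCLM3 cells infected with lentivirus carrying the human *PON1* coding sequence, and 3 negative control (NC) libraries. Both lines were selected with puromycin, and the series text gives an empty vector lentivirus for the control. The labels and methods name stable lines, and the methods give 10% serum for the cell lines, whereas the series text also gives 15% serum and lysis 24 h after transfection. Nothing in the labels says that the 3 libraries of a group came from separate cultures, so n counts libraries, and the spread between them may be technical.

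NF-κB is a dimer of REL-family proteins that IκB proteins hold inactive in the cytoplasm. Signals from cytokine and pattern-recognition receptors activate the IκB kinase (IKK), IκBα is degraded, and the dimer enters the nucleus and binds κB motifs. Several of its own targets switch the pathway off again, among them IκBα (*NFKBIA*) and the ubiquitin-editing enzyme A20 (*TNFAIP3*), and in the liver this circuit is known for its part in injury, inflammation and cancer. Other IκB proteins, IκBζ (*NFKBIZ*) and BCL3, sit in the nucleus and modify transcription at κB sites.

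The members that feed back on the pathway are known NF-κB targets, so the κB consensus was looked for on both strands of the RefSeq promoter windows (250 bases before to 50 after a transcript start, GRCh38.p14). The consensus was GGGRNNYYCC, where R is A or G, Y is C or T, and N is any base. Windows were present for 8 of the 10 members, not for *RELB* and *NFKBIE*. The consensus was found for 7 of these 8, the other being *RELA*, and in 9 of their 14 windows. Among all 35116 windows 11.3% held it, and of all 27305 gene symbols 13.3%. The stretches below are 30 bases each, written 5′ to 3′ on the strand of the gene with the 10-base match in capitals, and are shown because *NFKBIZ* and *TNIP1*, on which the results turn, carry the same motif letters as other members.
NFKBIZ, chr3:101827757-101827786, + strand: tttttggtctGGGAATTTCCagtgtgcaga
NFKB1, chr4:102501300-102501329, + strand: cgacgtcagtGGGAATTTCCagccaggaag
TNIP1, chr5:151081057-151081086, − strand: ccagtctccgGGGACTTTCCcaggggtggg
NFKB2, chr10:102395674-102395703, + strand: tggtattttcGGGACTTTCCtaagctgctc
NFKBIA, chr14:35404811-35404840, − strand: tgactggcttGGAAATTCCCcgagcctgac
TNFAIP3, chr6:137867182-137867211, + strand: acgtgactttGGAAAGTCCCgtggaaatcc
TNFAIP3, chr6:137867194-137867223, + strand: aaagtcccgtGGAAATCCCCgggcctacaa
BCL3, chr19:44748700-44748729, + strand: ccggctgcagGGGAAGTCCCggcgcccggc
The *NFKBIA* match and both *TNFAIP3* matches read as the consensus on the strand opposite to the gene, and the *BCL3* match reads as the consensus on both strands.

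**Figure D1:**
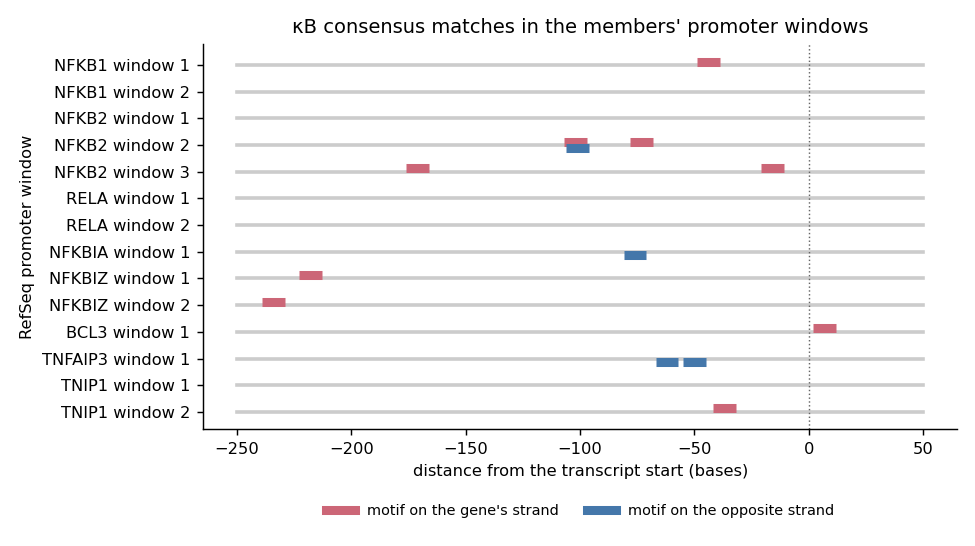
Position of each κB consensus match (colored blocks, 10 bases each) in the 14 RefSeq promoter windows of 8 members. The x axis gives the distance from the transcript start in bases, with red for a match on the strand of the gene and blue for one on the opposite strand. A match that reads as the consensus on both strands is drawn in red only. The 13 matches lie in 9 windows, and 5 of them belong to *NFKB2*.

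*NFKBIZ* and *NFKB1* shared the motif GGGAATTTCC, whose first base lay 223 bases before the transcript start in *NFKBIZ* and 49 bases before it in *NFKB1*. *NFKB2* and *TNIP1* shared GGGACTTTCC, 21 and 42 bases before a transcript start that lies inside the gene. The *NFKB2* window at the gene's own start and the other *TNIP1* window held no match. Read on the strand of the consensus, the *NFKBIA* match was GGGAATTTCC too, and the first of the *TNFAIP3* matches was GGGACTTTCC, so each motif was shared by 3 members. A second *NFKBIZ* window, at a transcript start inside the gene, held another match 239 bases before that start. *NFKB2* had 5 matches in 2 windows, both at transcript starts inside the gene. A pair overlapped, with first bases 107 and 106 bases before the start of their window's transcript. The first of the pair reads as the consensus on both strands and the second on the opposite strand only. The single *BCL3* match began 2 bases after a transcript start, also inside the gene. Another motif, GGGNNTTTCC, takes any base after GGG where the consensus takes A or G, so it is not a subset of the consensus. On either strand, it was present for 6 of the 8 members, not for *BCL3* or *RELA*, and for 2.33% of all symbols. A match is a description of the letters in these windows and does not show that a factor binds there.

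*PON1* itself had 0, 2 and 3 counts in NC replicates 1 to 3 and 155, 181 and 167 counts in PON1-OE replicates 1 to 3, as the labels give them. Totals were 16506572 to 17948383 counts in NC and 15706672 to 16413730 in PON1-OE, so that every PON1-OE total lay below every NC total. Values below are CPM, the counts of a library scaled by its total and TMM factor, and the part of the remaining depth gap in the results was not tested. A floor of 3 counts equalled 0.166 to 0.192 CPM, which covers counting error only, and all members lay far above it. Of the 9 hepatocyte markers, the epithelial keratins *KRT8* and *KRT18* had 35483 to 42426 and 24078 to 26723 counts a library, and *HNF4A* had 1223 to 1492. The others were lower, *APOB* with 60 to 106 counts, *AFP* with 4 to 18 and *ALB* with 4 to 13. *APOA1* had 0 to 5 counts, and *TTR* and *SERPINA1* had at most 3 in any library. The list as a whole therefore does not mark these cells as hepatocytes. Summed, the 9 reached 3736 to 4234 CPM in NC and 3887 to 4121 CPM in PON1-OE, nearly all of it from *KRT8* and *KRT18*. The leukocyte markers *PTPRC*, *LYZ* and *CD3E* were at 0 in every library, and summed with *CD68* they reached 206 to 226 CPM in NC and 224 to 248 CPM in PON1-OE. The 4 fibroblast markers summed to 15.8 to 20.7 and 16.6 to 19.9 CPM, and the 3 endothelial markers to 13.3 to 13.8 and 14.1 to 16.4 CPM. Of the markers 10 passed the filter and were tested. None had an adjusted p under 0.05 in edgeR's test over all genes, and *CD68* (log2FC 0.13) and *APOB* (log2FC −0.36) had an unadjusted p under 0.05. The endothelial sum did not overlap between the groups. The part of these markers in the results was not tested.

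Between PON1-OE and NC, 8 of the 10 members were not called, *NFKBIZ* was lower by 31.2% and *TNIP1* higher by 14.1%. A gene was called when edgeR's quasi-likelihood test gave an adjusted p under 0.05 over the 11958 genes that passed the filter on low counts, and all 10 members passed that filter. The test called 81 genes, 0.677% of those tested. Of these, 60 were higher in PON1-OE (0.502%) and 21 lower (0.176%), and the members gave 1 of each. Since the members were chosen with these values known, nothing is read from that count. The log2FC (PON1-OE against NC, on the fitted log2 scale) was above 0 for 6 members and below 0 for 4. Its median over the members was 0.01, between −0.54 and 0.19, beside a median of −0.0025 over all genes tested. At an unadjusted p under 0.05 there were 4 members (*NFKB2*, *TNIP1*, *NFKBIZ* and *BCL3*) and 11.1% of all genes. The 3 libraries of a group lay wholly on one side of the other group for 3 members, *NFKB2* and *TNIP1* higher and *NFKBIZ* lower. Over all genes tested this was so for 16.1%, with 8.32% higher and 7.74% lower. In bulk libraries such as these, fewer cells with an mRNA and less of it per cell cannot be told apart.

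**Figure D2:**
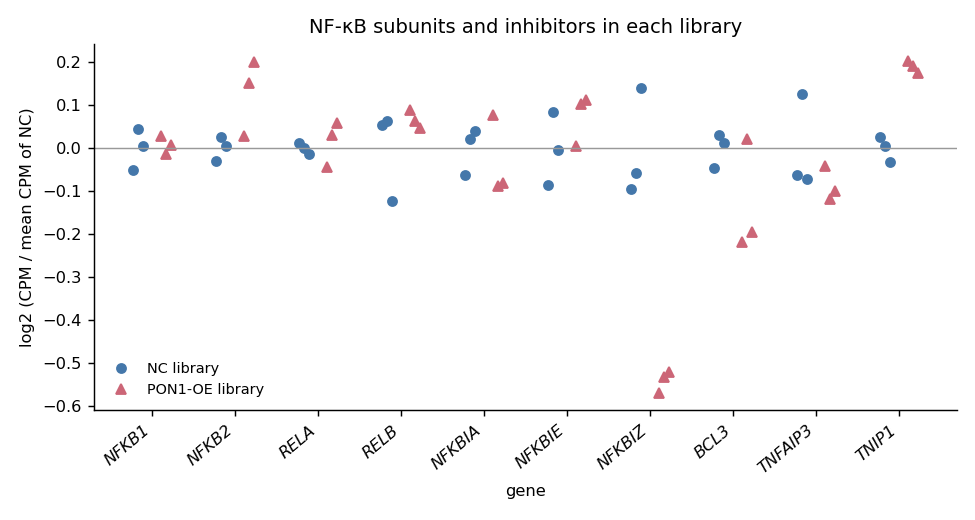
Level of each member in each library on a log2 scale relative to the mean CPM of the NC libraries (y axis), with NC libraries as blue circles and PON1-OE libraries as red triangles, 3 of each. The *NFKBIZ* triangles lie below all its circles and the *TNIP1* triangles above all of its circles. *NFKB2* is also apart, by a narrow margin, and the other 7 members overlap.

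The 4 REL-family subunits had log2FC between 0.0070 and 0.13, none of them called. *NFKB1* (ENSG00000109320) encodes p105, the precursor of p50, the DNA-binding partner of the classical dimer, and lies on the plus strand of chromosome 4 at 102501329 to 102617302 (GRCh38, GENCODE v29, as for all genes here). Its counts were 1119, 1310 and 1201 in NC against 1176, 1112 and 1105 in PON1-OE. On the CPM scale these were 67.8, 72.4 and 70.4 against 71.6, 69.5 and 70.5, with means of 70.2 ± 2.33 (SD, n = 3) and 70.6 ± 1.03. The PON1-OE libraries fell inside the NC range, and the log2FC was 0.0070 with a standard error (SE) of 0.05. Its sign turned when NC replicate 1 or PON1-OE replicate 1 was left out.

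*RELA* (ENSG00000173039, chromosome 11, 65653596 to 65663094, minus strand) encodes p65, the transactivating subunit of the classical dimer, and had the highest counts of the 10 members. They were 2783, 3023 and 2825 in NC against 2664, 2729 and 2726 in PON1-OE. In CPM this gave 169, 167 and 166 against 162, 171 and 174, means of 167 ± 1.44 and 169 ± 6.10, and a log2FC of 0.02 (SE 0.04). The groups overlapped, and PON1-OE held both the lowest and the highest library. Without PON1-OE replicate 3 the log2FC was −0.0058. The gene overlaps the noncoding AP001362.2 on the opposite strand, and whether the counting used strand is not given in the sources used here.

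*NFKB2* (ENSG00000077150, chromosome 10, 102394110 to 102402529, plus strand) encodes p100, which is cut to p52 in the non-canonical arm and until then acts as an IκB itself. It had 1781, 2028 and 1884 counts in NC against 1846, 1956 and 1984 in PON1-OE. The CPM were 108, 112 and 110.5 in NC, mean 110.1 ± 2.15, and 112, 122 and 127 in PON1-OE, mean 120.5 ± 7.31. All 3 PON1-OE libraries were above all NC libraries, the closest pair by under 1 CPM. The log2FC was 0.13 (SE 0.05), a level 9.31% higher, and the gene was not called. Leaving out PON1-OE replicate 3 gave 0.09, leaving out PON1-OE replicate 1 gave 0.18, and with total counts in place of TMM the groups overlapped.

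*RELB* (ENSG00000104856, chromosome 19, 45001430 to 45038198, plus strand), the partner of p52, had 959, 1057 and 876 counts in NC against 978, 935 and 905 in PON1-OE. Its CPM were 58.1, 58.4 and 51.4 in NC (mean 56.0 ± 3.98) and 59.5, 58.5 and 57.8 in PON1-OE (mean 58.6 ± 0.892), with a log2FC of 0.07 (SE 0.06). NC replicate 3 stood below the other libraries, which lay within 2 CPM of each other, and without it the log2FC was 0.0086.

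Of the 4 IκB proteins, *NFKBIZ* was lower in PON1-OE and called, and *NFKBIA*, *NFKBIE* and *BCL3* were not. *NFKBIZ* (ENSG00000144802) encodes IκBζ, a nuclear IκB that is induced by NF-κB and is needed for a second wave of target genes. It lies on the plus strand of chromosome 3 at 101827991 to 101861022. NC replicates 1 to 3 had 228, 256 and 277 counts, with exact Poisson 95% intervals of 199 to 260, 226 to 289 and 245 to 312, which cover counting error only. PON1-OE replicates 1 to 3 had 163, 163 and 161 counts, with intervals of 139 to 190, 139 to 190 and 137 to 188. The CPM were 13.8, 14.2 and 16.2 in NC, mean 14.7 ± 1.32 (SD, n = 3), and 9.92, 10.2 and 10.3 in PON1-OE, mean 10.1 ± 0.185. The log2FC of −0.54 (SE 0.11) ranked 116 from the lowest among the 11958 genes. It was the largest difference of the 10 members in size, from the member with the lowest level.

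*NFKBIZ* kept a log2FC between −0.58 and −0.46 in all 12 other fits and was called in 8 of them. The call was lost without NC replicate 3, where the log2FC was −0.46, and without PON1-OE replicate 1 (−0.52) or PON1-OE replicate 3 (−0.55). DESeq2 gave *NFKBIZ* a log2FC of −0.54 and an unadjusted p of 0.000189, but no adjusted p, so it could not be called there. The first promoter stretch shown above belongs to this gene. *NFKB1* and *NFKBIA*, with the same 10 motif letters on the strand of the consensus, had log2FC of 0.0070 and −0.03. Any part of the motif in these differences was not tested.

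*NFKBIA* (ENSG00000100906, chromosome 14, 35401511 to 35404749, minus strand) encodes IκBα, the classical cytoplasmic inhibitor and an early NF-κB target. Its counts were 865, 1003 and 958 in NC against 947, 823 and 809 in PON1-OE. The CPM were 52.4, 55.4 and 56.2 (mean 54.7 ± 2.01) against 57.7, 51.5 and 51.6 (mean 53.6 ± 3.52), and the log2FC was −0.03 (SE 0.06). PON1-OE replicate 1 was the highest of all 6 libraries and the other two PON1-OE libraries were the lowest, so the groups overlapped. Without PON1-OE replicate 2 the log2FC was 0.00090. *NFKBIE* (ENSG00000146232, chromosome 6, 44258166 to 44265788, minus strand), encoding IκBε, another cytoplasmic inhibitor, had 447, 551 and 488 counts in NC against 473, 493 and 486 in PON1-OE. Its CPM means were 28.7 ± 1.70 and 30.2 ± 1.23, its ranges of 27.1 to 30.5 and 28.8 to 31.0 overlapped, and its log2FC was 0.07 (SE 0.07). This was 0.03 without NC replicate 1, 0.12 without NC replicate 2 and 0.11 when PON1-OE replicate 1 was left out.

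*BCL3* (ENSG00000069399, chromosome 19, 44747705 to 44760044, plus strand) encodes a nuclear IκB that acts with p50 and p52 homodimers, and it ends 241385 bases before *RELB* begins. There were 1944, 2245 and 2089 counts in NC against 1714, 1971 and 1661 in PON1-OE. In CPM, NC had 118, 124 and 123 (mean 121 ± 3.32) and PON1-OE had 104, 123 and 106 (mean 111 ± 10.5). PON1-OE replicate 2 lay among the NC libraries, while the other two lay below them. The log2FC was −0.13 (SE 0.06) and the gene was not called. Without PON1-OE replicate 2 the log2FC was −0.21 (SE 0.05) and *BCL3* was called, and without PON1-OE replicate 1 it was −0.08. The gene holds the miRNA gene *MIR8085* on its own strand.

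Of the A20 arm, *TNIP1* was higher in PON1-OE and called, and *TNFAIP3* was not called. *TNFAIP3* (ENSG00000118503, chromosome 6, 137867188 to 137883312, plus strand) encodes A20, which edits ubiquitin chains on signaling adaptors and so ends NF-κB activation. It had 604, 754 and 620 counts in NC against 610, 563 and 559 in PON1-OE, or 36.6, 41.7 and 36.4 CPM (mean 38.2 ± 3.01) against 37.1, 35.2 and 35.7 CPM (mean 36.0 ± 1.01). The groups overlapped, NC replicate 2 was the highest library, and the log2FC was −0.09 (SE 0.07), not called. It was −0.02 without NC replicate 2. The antisense gene AL357060.1 overlaps it.

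*TNIP1* (ENSG00000145901, chromosome 5, 151029945 to 151093577, minus strand) encodes ABIN-1, a ubiquitin-binding partner that helps A20 restrain IKK. It had 2179, 2356 and 2163 counts in NC against 2453, 2367 and 2292 in PON1-OE. The CPM were 132, 130.2 and 127 in NC, mean 129.7 ± 2.60 (SD, n = 3), and 149, 148 and 146 in PON1-OE, mean 148 ± 1.52. All PON1-OE libraries lay above all NC libraries, and the gap between the groups was wider than the range within either. The log2FC of 0.19 (SE 0.04) was called and ranked 900 from the highest among the genes tested, so many genes with larger differences were not called. It stayed between 0.17 and 0.20 in all 12 other fits and was called in 6 of them. The call was lost with the replicate number as a block, without any 1 of the 3 NC libraries (0.20, 0.19 and 0.17 without NC replicates 1, 2 and 3), and without PON1-OE replicate 1 (0.19) or 3 (0.20).

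**Figure D3:**
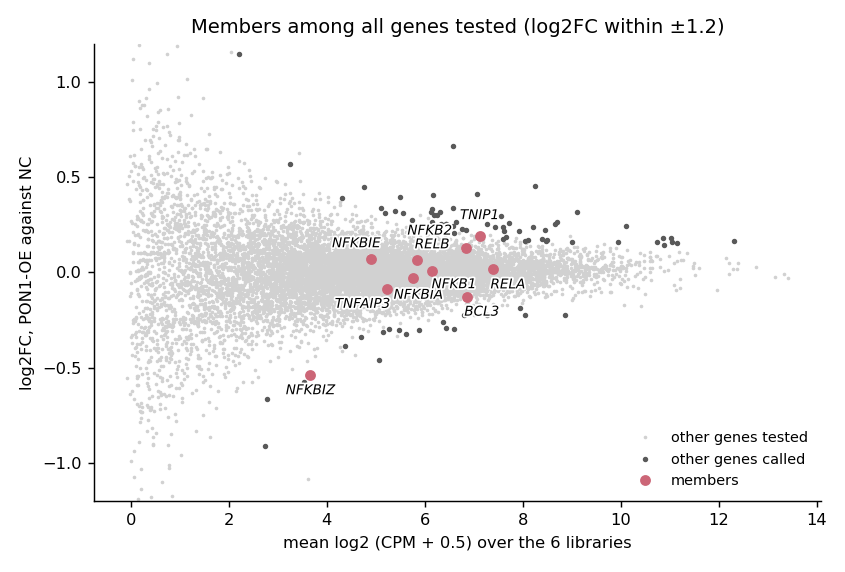
The fitted log2FC of PON1-OE against NC (y axis) by mean log2 (CPM + 0.5) over the 6 libraries (x axis) for each gene tested, with the 10 members in red, other called genes in dark gray and the rest in light gray. Genes with a log2FC outside the axis are not drawn. *NFKBIZ*, at −0.54, lies at a lower expression than the other members, and 8 members lie between −0.13 and 0.13.

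By Pearson's r of log2 CPM over the 6 libraries, among 10575 genes with a mean of at least 50 counts, the genes most like *TNIP1* were *WIPI1* (r = 0.989), *WDR1* (r = 0.986) and *NEO1* (r = 0.985). The r is a description over 6 libraries that fall into the 2 groups, and for *TNIP1*, whose groups lie apart by more than the range within either, it mostly restates the difference between the groups. The log2FC in edgeR's fit was 0.39 for *WIPI1* (SE 0.08, adjusted p = 0.0318), 0.08 for *WDR1* (SE 0.03, adjusted p = 0.349) and 0.15 for *NEO1* (SE 0.06, adjusted p = 0.315).

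Levels of different members were compared as CPM per kilobase of exon, with all exons of a gene merged. The lengths are those of GENCODE v29, and the exons behind the deposited counts may differ, since their annotation is not given. The order by mean level was *BCL3*, *RELA*, *NFKB2*, *TNIP1*, *NFKBIA*, *RELB*, *NFKBIE*, *NFKB1*, *TNFAIP3* and *NFKBIZ*, and the first was 17 times the last. *BCL3* had 37.5 ± 1.02 CPM per kilobase in NC (SD, n = 3) and 34.3 ± 3.23 in PON1-OE, and *RELA* 30.6 ± 0.263 and 30.9 ± 1.12. *NFKB2* had 24.6 ± 0.479 in NC and 26.9 ± 1.63 in PON1-OE on this scale, *TNIP1* 22.4 ± 0.450 and 25.5 ± 0.262, and *NFKBIA* 23.0 ± 0.848 and 22.6 ± 1.48. These 3 formed a middle group in which the ranges over the 6 libraries of *NFKB2* and *TNIP1*, and of *TNIP1* and *NFKBIA*, overlapped. *RELB* followed with 18.4 ± 1.31 and 19.3 ± 0.294 CPM per kilobase. *NFKBIE* (11.1 ± 0.658 and 11.7 ± 0.478) and *NFKB1* (11.2 ± 0.373 and 11.3 ± 0.165) were not separated by their ranges. *TNFAIP3* had 7.56 ± 0.596 and 7.13 ± 0.199, and *NFKBIZ* 2.50 ± 0.223 and 1.72 ± 0.0313. Within NC and within PON1-OE, 6 of the 10 had the same place in the order. With the length of the longest transcript in place of the merged exons, 5 of the 10 kept their place, and the moves were among *NFKB2*, *TNIP1* and *NFKBIA* and between *NFKBIE* and *NFKB1*.

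**Figure D4:**
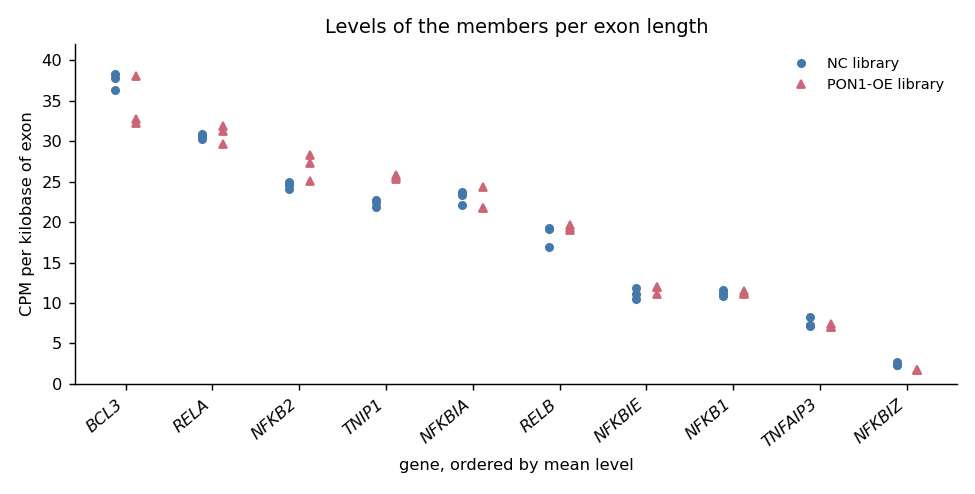
Level of each member in CPM per kilobase of exon (y axis, linear from 0), ordered by mean, with NC libraries as blue circles and PON1-OE libraries as red triangles, 3 of each. *BCL3* is highest at 32.2 to 38.3 and *NFKBIZ* lowest at 1.68 to 2.75 over the 6 libraries.

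The rest of the pathway was read from a list of 76 other genes sorted by role, of which 61 passed the filter. In these, 32 log2FC were above 0 and 29 below, with a median of 0.0044 beside −0.0025 over all genes tested. None was called as higher and 1 as lower, *CXCL5*, and limma-voom called 0 of them. DESeq2 called 0 as well, but a gene without an adjusted p there was counted as not called. The members *NFKBIZ* and *NFKBIE* had none in that fit, so pathway genes with counts as low could not be called. At an unadjusted p under 0.05 there were 9 of the 61 (3 higher and 6 lower) beside 11.1% of all genes tested, and the groups did not overlap for 11 (6 higher and 5 lower) beside 16.1% of all genes tested. The adjusted p-values that follow are from edgeR's test over all 11958 genes.

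The other REL and IκB genes all had log2FC below 0, with a median of −0.14 over 3 of 3 tested, and none was called (1 at an unadjusted p under 0.05). *NFKBIB*, encoding IκBβ, had −0.13 (SE 0.05, adjusted p = 0.352), *REL*, encoding the subunit c-Rel, −0.14 (SE 0.14, adjusted p = 0.792), and *NFKBID*, a nuclear IκB with 13 to 26 counts, −0.23 (SE 0.33, adjusted p = 0.860). The groups of each overlapped.

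Of 16 receptors and adaptors, 14 were tested and none called (2 at an unadjusted p under 0.05), 8 log2FC were above 0 and 6 below, and their median was 0.02. *IL1R1*, the interleukin-1 receptor, was at 20.04 ± 0.899 CPM in NC and 16.9 ± 1.16 in PON1-OE, a log2FC of −0.24 (SE 0.09, adjusted p = 0.278). *RIPK2*, the kinase that carries the NOD1 and NOD2 signal, was at 119 ± 3.81 and 129.7 ± 1.69 CPM, a log2FC of 0.12 (SE 0.04, adjusted p = 0.283). The groups of both did not overlap. *IRAK1*, a kinase below the interleukin-1 receptor, had a log2FC of 0.06 (adjusted p = 0.542) and *RIPK1*, a kinase of the TNF receptor complex, 0.10 (adjusted p = 0.564). The *IRAK1* and *RIPK1* groups did not overlap either.

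All 7 genes of the IKK and TAK1 kinase complexes were tested, with log2FC between 0.0044 and 0.11 and a median of 0.05, and none was called or had an unadjusted p under 0.05. *MAP3K7*, encoding TAK1, had 0.11 (SE 0.08, adjusted p = 0.671), *IKBKB*, encoding IKKβ, 0.10 (SE 0.08, adjusted p = 0.686), *IKBKG*, encoding the scaffold NEMO, 0.05 (SE 0.04, adjusted p = 0.737) and *TAB3*, a TAK1-binding protein, 0.07 (SE 0.12, adjusted p = 0.890). *IKBKG* has a nearly identical pseudogene copy, so its count is uncertain.

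The 7 genes of the enzymes that build linear and K63 ubiquitin chains, IAP proteins included, had a median log2FC of −0.04, 2 above 0 and 5 below, with none called and 0 at an unadjusted p under 0.05. *XIAP* had −0.11 (adjusted p = 0.569), *RBCK1* 0.06 (adjusted p = 0.582), *SHARPIN* −0.08 (adjusted p = 0.641) and *UBE2N* −0.05 (adjusted p = 0.715). Of these, *RBCK1* and *SHARPIN* encode parts of the linear chain complex and *UBE2N* the K63 conjugating enzyme. In the non-canonical arm, 5 of 6 genes were tested, none called and 0 at an unadjusted p under 0.05, with a median of −0.02. *OTUD7B*, a deubiquitinase, had −0.06 (adjusted p = 0.599), its partner in the arm *TRAF3* −0.07 (adjusted p = 0.785), the TWEAK receptor *TNFRSF12A* 0.05 (adjusted p = 0.670) and the lymphotoxin receptor *LTBR* −0.02 (adjusted p = 0.916). Of these, only the *OTUD7B* groups did not overlap.

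**Figure D5:**
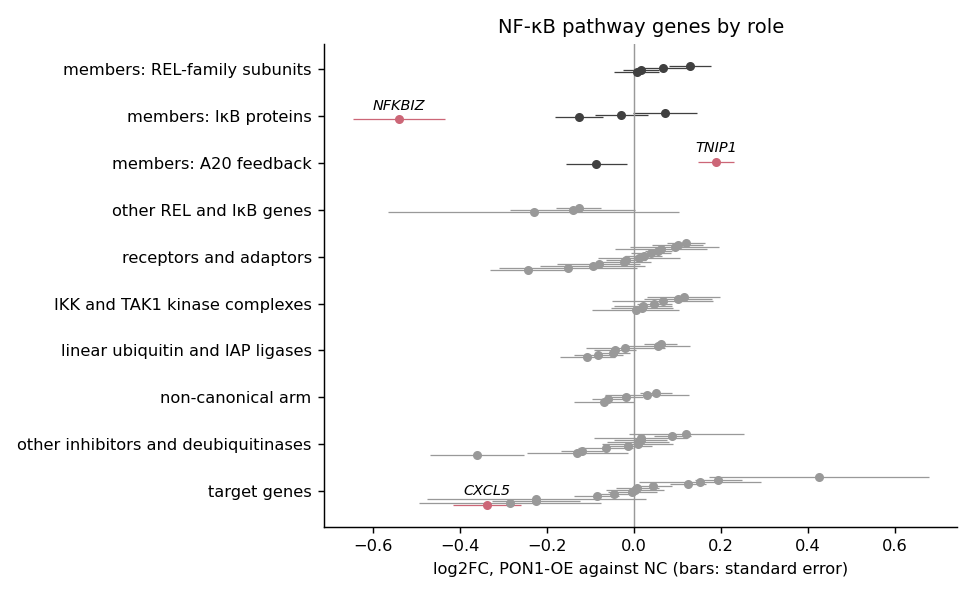
The log2FC of PON1-OE against NC (x axis, bars give the standard error) for the 10 members and the 61 other pathway genes tested, in rows by role (y axis). Called genes are red and named. *NFKBIZ* and *TNIP1* among the members and *CXCL5* among the target genes were called, and most genes in each row lie within 0.2 of 0.

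Among 12 other inhibitors and deubiquitinases, 11 were tested and none called (2 at an unadjusted p under 0.05), 6 above 0 and 5 below, with a median of 0.0088. *TANK*, an adaptor that binds TRAF proteins and the kinase TBK1, had 209, 221 and 194 counts in NC against 153, 152 and 147 in PON1-OE. Its groups did not overlap, and its log2FC of −0.36 (SE 0.11, adjusted p = 0.172) was the lowest among the 61 pathway genes that passed the filter. *TAX1BP1*, a partner of A20, had −0.12 (SE 0.05, adjusted p = 0.356), *TNIP2*, the ABIN-2 gene and a paralog of *TNIP1*, 0.09 (SE 0.04, adjusted p = 0.458), and *ZC3H12A*, the ribonuclease Regnase-1, −0.13 (SE 0.12, adjusted p = 0.747). *TNIP2* libraries lay at 118 to 123 CPM in NC and at 125 to 131 CPM in PON1-OE, and the *ZC3H12A* groups did not overlap either.

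Of 25 NF-κB target genes, 14 were tested, 7 with a log2FC above 0 and 7 below, and their median was −0.00034. *CXCL5*, a chemokine that attracts neutrophils, had 449, 549 and 477 counts in NC against 363, 346 and 375 in PON1-OE. Its level was 28.5 ± 1.65 CPM in NC (SD, n = 3) and 22.6 ± 1.22 in PON1-OE, and the log2FC of −0.34 (SE 0.08, adjusted p = 0.0484 in edgeR's test) was just inside the threshold. The call was lost with limma-voom, the replicate block and without any 1 of the 6 libraries. DESeq2 did not call *CXCL5* either, but there a gene without an adjusted p was counted as not called. *NFKBIE*, at a higher mean CPM than *CXCL5*, had no adjusted p in that fit, so nothing is read from DESeq2 for *CXCL5*. The urokinase gene *PLAU* (0.19, SE 0.05, adjusted p = 0.123), the cytokine gene *IL32* (0.12, SE 0.04, adjusted p = 0.217) and the IAP gene *BIRC3* (−0.23, SE 0.10, adjusted p = 0.409) were picked for naming after their values were seen, as having an unadjusted p under 0.05. The other 11 targets did not pass the filter. Of these, *CXCL10*, *LTB*, *MMP9* and *PTX3* had no count in any library, and *TNF*, *IL6* and *CCL2* had at most 3 in any library. *CXCL1*, *CXCL3*, *VCAM1* and *CD83* had more, *CXCL3* with 10, 9 and 22 counts in NC against 7, 3 and 4 in PON1-OE.

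Over the 9747 tested genes with a promoter window, the 1685 with the κB consensus had a median log2FC of −0.00030 beside −0.0028 for all of them. The 291 genes with GGGNNTTTCC had a median of 0.02. Among the 9747 genes 56 were called (0.575%), 41 of them higher in PON1-OE. Among the 1685 genes 14 were called (0.831%), 11 of them higher. Among the 291 genes 5 were called (1.72%), 2 of them higher, and *NFKBIZ* and *TNIP1* are among these 5. Since those members were chosen with this contrast known and no test was run, nothing is read from the shares.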

How the data were processed

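RNA-seq of poly(A) RNA was carried out on 3 NC and 3 PON1-OE libraries of HCCLM3 cells. The values that the authors deposited are estimated counts that were not normalized, and 10.1% to 10.8% of the values of a library were not whole. The submitters' processing notes name Bowtie2 2.2.8, HISAT2, StringTie 1.3.1 and DESeq2, without their roles. The genome build and annotation are not given in the sources used here. Counts were rounded to whole numbers, a step that the planned test on whole counts did not foresee, and 4839 genes then had no count. The members' own counts were whole. Analysis was in R 4.3.3 with edgeR 4.0.16 (filterByExpr, TMM, glmQLFit and glmQLFTest, no covariates, Benjamini-Hochberg over all genes tested). The common dispersion was 0.00192, and libraries within a group differed from each other beyond sampling noise (chi-square per degree of freedom 2.11 to 4.11). Alternatives were scaling by RLE, testing without the filter, a minimum of 10 counts per library, the replicate block, DESeq2 1.42.0, limma-voom (limma 3.58.1), each library left out, |log2FC| over 0.585 and the unadjusted p. The fit was also run on simulated data with 200 changed genes. Each was changed by more than *TNIP1* was, so recovery at the size of the *TNIP1* difference was not tested.

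The members, the pathway lists, the markers and the rules were chosen with earlier results of these data known. Named were all members, pathway genes called or else up to 4 per list with the smallest p, the 3 genes most like *TNIP1*, and *PON1*. *PLAU*, *IL32*, *BIRC3*, the genes at 0 or below the filter, and the genes of the list on IκBζ were named after their values were seen. Coordinates and exon lengths came from GENCODE v29 and promoter windows from RefSeq. 1 item of the marker lists is not reported here.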

Additional observations from a re-analysis of the deposited data

How the results depend on the processing

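The number of members called was 2 with RLE scaling, without the filter, with a minimum of 10 counts per library and with limma-voom. It was 1 with the replicate block (*NFKBIZ*), 1 with DESeq2 (*TNIP1*; *NFKBIZ* had no adjusted p there), 0 with the study's fold threshold added, 4 with an unadjusted p, and 0 to 3 when each library was left out (1 without NC replicate 1 or 2, 0 without NC replicate 3, PON1-OE replicate 1 or 3, and 3 without PON1-OE replicate 2). Called pathway genes numbered 1 with RLE size factors and with at least 10 counts, and 2 with no filter (*CXCL5* and *PLAU*). They numbered 0 with the replicate block, limma-voom or the added fold threshold, 9 with an unadjusted p, and 0 without any 1 library. With DESeq2 the number was 0 too, where genes without an adjusted p were counted as not called. Over all genes, 177 were called with no filter, 121 with DESeq2, 40 with the replicate block, 6 with the fold threshold and 11 to 103 with a library left out, against 81. The cause of these moves was not tested. Members whose groups did not overlap were 3, or 2 with total counts. The order of levels kept 5 of 10 places with the longest transcript, and 6 members held GGGNNTTTCC beside 7 with the κB consensus. The sign of the log2FC turned for *NFKB1* without NC replicate 1 (−0.02) and PON1-OE replicate 1 (−0.00022), *RELA* without PON1-OE replicate 3 and *NFKBIA* without PON1-OE replicate 2. Deviations of same-numbered libraries correlated at 0.03, −0.06 and −0.02. Differently numbered libraries were not compared, so this cannot tell whether the replicate numbers in the titles pair the samples. The depth limits *NFKBIZ* most, with 161 to 277 counts a library.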

Other observations

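Since *NFKBIZ* was lower, 10 genes known to need IκBζ were also read, a list put together after the values of *NFKBIZ* had been seen. Of these, 3 passed the filter and none was called in edgeR's test over all genes, with 1 (*CSF2*) at an unadjusted p under 0.05. *LCN2*, the siderophore-binding lipocalin, had 761, 1159 and 965 counts in NC and 663, 872 and 949 in PON1-OE, a log2FC of −0.10 (SE 0.11, adjusted p = 0.801). *CCL20*, a chemokine, had 101, 97 and 111 counts against 108, 111 and 101, a log2FC of 0.15 (SE 0.14, adjusted p = 0.760). *CSF2*, encoding GM-CSF, had 13, 27 and 21 counts against 33, 25 and 35, a log2FC of 0.71 (SE 0.31, adjusted p = 0.395), with groups that did not overlap on the CPM scale. *CSF3*, *IL12B*, *DEFB4A* and *S100A8* had no count in any library, *IL6* and *S100A9* had at most 3, and *IL36G* had 0 to 5.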
